A study of Mus musculus with 8 samples.

Results

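The genes described here encode the proteins of the mitochondrial ribosome. They were taken as every probe set with a single platform gene symbol that starts with Mrpl or Mrps and goes on with a digit, which gave 122 of the 18443 probe sets on the array and 74 of the 10401 genes it names. By symbol, 83 probe sets (47 genes) belonged to the large subunit and 39 (27 genes) to the small subunit. The rule itself used no measured value, though it was set with earlier results of these data known. A further 3 probe sets that carry such a symbol beside that of another gene were left out.

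The source of RNA was small intestinal enterocytes, which absorb nutrients, isolated from C57BL/6 males 2.5 to 3.0 months old. In IE-Cpr-null mice the gene for NADPH-cytochrome P450 reductase (Cpr), which passes electrons to microsomal P450 enzymes, is deleted in the intestinal epithelium, and the line is known to carry Cre under the villin promoter, which is active in epithelial cells of the gut. They were compared with WT littermates, with no agent given to either genotype. There were 4 arrays per genotype. An array was hybridised with a pool of RNA of 2 mice, so that 8 mice stood behind a group and errors measured the spread between pools. Values are log2 relative to the WT median of 4 arrays, so no level of expression is known, and each difference is IE-Cpr-null minus WT on that log2 scale.

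The mitochondrial ribosome makes the few proteins that mitochondrial DNA encodes, all of them subunits of the respiratory chain and ATP synthase. Its own proteins are encoded in the nucleus, made in the cytosol and imported, and they join RNA made in the mitochondrion. The large subunit forms peptide bonds and holds the tunnel through which the new chain leaves, and the small subunit decodes the messenger RNA. Some of the proteins have relatives in the bacterial ribosome, and others were added in mitochondria. Enterocytes hold many mitochondria, which supply energy for nutrient uptake.

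The 4 member genes with the smallest gene-level p and a promoter entry are introduced by the 250 bases before their start site, because NRF1 and ETS factors such as GABP, known regulators of genes for mitochondrial proteins, bind promoters of this class. Sequences are from RefSeq, build GRCm38.p6, written 5′ to 3′ on the gene's strand, and 65 of the 74 genes had an entry. Capitals in Mrpl12 and Mrpl44 mark a match to the core of the NRF1 motif with 1 open base, which is GCGC, any base, T and GCGC again, or on the other strand GCGC, A, any base and GCGC again. Capitals in Mrpl34 mark the ETS core letters, CCGGAAG.
Mrpl44, chr1:79775768-79776017, plus strand: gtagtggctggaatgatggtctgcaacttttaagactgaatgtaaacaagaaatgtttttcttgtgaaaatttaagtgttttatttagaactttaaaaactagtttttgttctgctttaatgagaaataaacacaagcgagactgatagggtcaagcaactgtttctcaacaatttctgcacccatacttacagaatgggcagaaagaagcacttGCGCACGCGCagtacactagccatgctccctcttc
Mrps15, chr4:126046678-126046927, plus strand: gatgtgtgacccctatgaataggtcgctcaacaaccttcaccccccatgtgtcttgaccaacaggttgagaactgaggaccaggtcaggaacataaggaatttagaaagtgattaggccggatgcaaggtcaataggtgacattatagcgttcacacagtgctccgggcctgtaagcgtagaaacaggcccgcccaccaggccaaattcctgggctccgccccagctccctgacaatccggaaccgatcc
Mrpl12, chr11:120484387-120484636, plus strand: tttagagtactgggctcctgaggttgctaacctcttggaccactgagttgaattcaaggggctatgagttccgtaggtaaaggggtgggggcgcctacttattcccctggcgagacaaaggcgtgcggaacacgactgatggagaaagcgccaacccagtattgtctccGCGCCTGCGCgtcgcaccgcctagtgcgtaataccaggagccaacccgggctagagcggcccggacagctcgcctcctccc
Mrpl34, chr8:71464676-71464925, plus strand: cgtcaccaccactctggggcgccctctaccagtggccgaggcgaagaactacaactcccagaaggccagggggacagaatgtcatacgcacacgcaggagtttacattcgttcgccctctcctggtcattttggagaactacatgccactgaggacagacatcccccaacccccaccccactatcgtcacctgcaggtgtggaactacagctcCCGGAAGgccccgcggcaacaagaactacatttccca

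Mrpl44, Mrpl12 and Mrpl34 had lower means in IE-Cpr-null in the values below, and the NRF1 letters were in the windows of the first pair and not in that of Mrpl34. Mrps15 had a higher mean, and neither motif was in its window. Other large subunit genes with a probe set whose groups did not overlap were Mrpl35, Mrpl16, Mrpl1 and Mrpl39. The windows of Mrpl35, Mrpl16 and Mrpl1 held neither motif, and that of Mrpl39 held the NRF1 letters. Over the 65 genes with an entry, 9 (13.8%) held a match to the NRF1 letters, against 8.58% of 8388 genes on the array and 4.23% of 27025 mouse genes. By subunit these were 8 of 41 large subunit genes (19.5%) and 1 of 24 small subunit genes (4.17%). The share was thus above that of the array in the large subunit only. The ETS letters, CCGGAAG on either strand, were in 16 member windows (24.6%, against 14.3% of genes on the array). Those of YY1, AAGATGGC on either strand, were in 4 (6.15%, against 2.29%). The median difference was -0.067 over the 9 genes with the NRF1 letters, of which 8 were lower, and -0.070 over the 56 genes without them, of which 46 were lower. With the ETS letters it was -0.067 (16 genes) and without them -0.069 (49 genes). With the YY1 letters it was -0.035 (4 genes) and without them -0.073 (61 genes). The difference between genes with and without these letters was not tested.

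Across the whole array, limma called 4 probe sets at an adjusted p of 0.05 (3 higher, 1 lower). The deleted gene's own transcript is not analysed here and gives no check of the labels. WT replicate 2 and IE-Cpr-null replicate 1 were rich in smooth muscle transcripts, with means over 10 markers of 2.03 and 4.86, and IE-Cpr-null replicates 2 and 3 in hepatocyte transcripts, with means over 9 markers of 6.34 and 3.94. Pancreatic acinar transcripts were low on all 4 IE-Cpr-null arrays (means over 8 markers from -5.55 to -2.39) as well as WT replicate 3 (-5.49). Markers of enterocytes stayed within a mean of -0.082 to 0.022 on all 8 arrays, but centred values cannot show whether a marker is present. In bulk RNA, fewer cells of a type and less RNA per cell cannot be told apart.

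No probe set of the mitochondrial ribosome passed the threshold in limma (0 of 122 in either direction), with a smallest adjusted p of 0.251. Over all probe sets 0.0217% passed, 0.0163% as higher and 0.00542% as lower. Differences were small: 115 of the 122 lay within 1.2-fold, and none exceeded 1.5-fold, with a full range from -0.43 to 0.25. They leaned to the lower side. IE-Cpr-null was below WT in 86 probe sets and above in 36, or 70.5% below, against 42.5% of all probe sets, and the median difference was -0.063 against 0.016. At an unadjusted p under 0.05 in limma, 17 members were lower (13.9%, background 4.47%) and 2 higher (1.64%, background 2.92%). Every IE-Cpr-null array lay below every WT array in 10 members (8.20%, against 2.47% of all probe sets) and above in 2 (1.64%, background 1.64%).

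**Figure D1:**
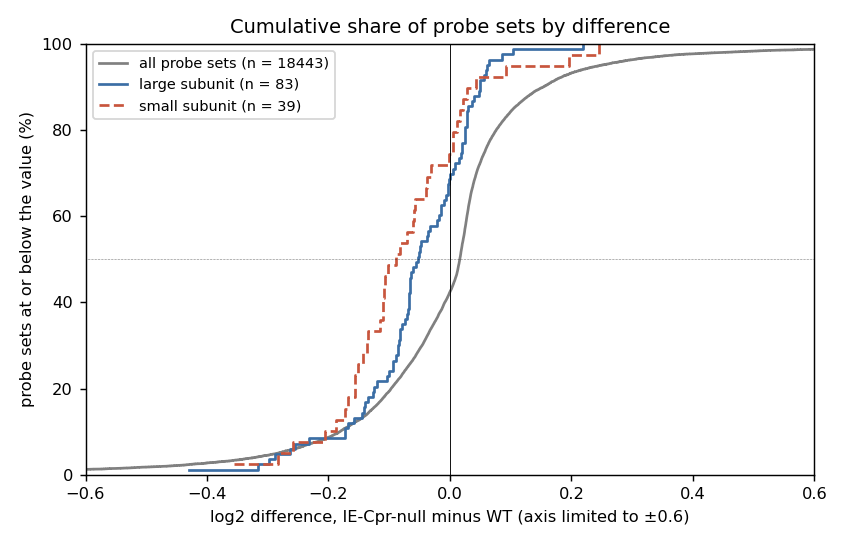
Cumulative share of probe sets (vertical axis, percent) at or below each log2 difference, IE-Cpr-null minus WT (horizontal axis, limited to 0.6 on either side), for all 18443 probe sets and for the members of each subunit. Both subunit curves lie to the left of the curve of all probe sets in the middle and upper range and meet it in the lower tail, with medians of -0.052 (large), -0.089 (small) and 0.016 (all).

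Transcripts of the large subunit were mostly slightly lower in IE-Cpr-null. Of the 83 probe sets of this subunit 57 were lower and 26 higher, with a median difference of -0.052. The median on the WT arrays was 0.039, 0.011, -0.015 and -0.012 in replicates 1 to 4, and on the IE-Cpr-null arrays -0.013, -0.067, -0.034 and -0.030. The lowest of these was IE-Cpr-null replicate 2, and the IE-Cpr-null median of replicate 1 lay above that of WT replicate 3. The groups therefore overlapped in this summary. Without IE-Cpr-null replicate 2 the median difference was -0.030, and without WT replicate 1 it was -0.032. No probe set was called by limma (0 of 83), and at an unadjusted p under 0.05 there were 12 lower (14.5%, background 4.47%) and 0 higher (background 2.92%). The groups did not overlap in 8 probe sets, all lower (9.64%, background 2.47%), and in 0 that were higher (background 1.64%).

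Mrpl12, the relative of the bacterial L7/L12 stalk protein, had the smallest p of the large subunit. Its values were 0.011, 0.0032, -0.0098 and -0.0032 on the WT arrays and -0.093, -0.12, -0.18 and -0.083 on the IE-Cpr-null arrays. All 4 IE-Cpr-null pools lay below all 4 WT pools. The difference was -0.12 (SE 0.034, 95% interval -0.20 to -0.040, 8.01% lower, limma adjusted p = 0.432).

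Mrpl44, a protein added in mitochondria with a fold like that of ribonuclease III, was measured by 3 probe sets, all lower. The means of these on the WT arrays were 0.10, -0.028, 0.041 and 0.018, and on the IE-Cpr-null arrays -0.33, -0.287, -0.146 and -0.265, without overlap. As a gene it was 0.29 lower (SE 0.050, 18.2%, limma adjusted p = 0.156 over 10401 genes), the largest difference of any member gene. In single probe sets the differences were -0.30 (1452144_a_at), -0.25 (1437391_x_at) and -0.32 (1426651_at), and the groups overlapped in the last of them.

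Mrpl39, also added in mitochondria and related in sequence to threonyl-tRNA synthetase, read -0.048, -0.0036, 0.0036 and 0.062 in WT against -0.083, -0.10, -0.212 and -0.155 in IE-Cpr-null. That difference was -0.14 (SE 0.043, limma adjusted p = 0.471) in probe set 1448909_a_at. Its second probe set, 1417966_at, differed by -0.067 (SE 0.074) with overlapping groups. Both were lower, and their intervals overlapped.

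Mrpl34 and Mrpl35, relatives of small bacterial ribosomal proteins, gave a similar picture. Mrpl34 read 0.063, -0.030, 0.026 and -0.026 in WT against -0.11, -0.098, -0.23 and -0.10 in IE-Cpr-null, a difference of -0.14 (SE 0.045, adjusted p = 0.479). Mrpl35 read 0.087, -0.060, -0.0028 and 0.0028 in WT against -0.18, -0.092, -0.14 and -0.074 in IE-Cpr-null, a difference of -0.13 (SE 0.044, adjusted p = 0.548). In both, each IE-Cpr-null pool was below each WT pool. Mrpl16, a relative of a bacterial protein beside the catalytic centre, also had groups apart, with WT values of -0.085 to 0.066 and IE-Cpr-null values of -0.20 to -0.092. The difference was -0.14 (SE 0.048, adjusted p = 0.557).

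Other large subunit transcripts had larger but less even differences. Mrpl22, whose bacterial relative lines the exit tunnel, read 0.017, -0.12, -0.00029 and 0.00029 in WT against -0.321, -0.465, -0.030 and -0.343 in IE-Cpr-null. Its difference was -0.26 (SE 0.092, adjusted p = 0.551), and the third IE-Cpr-null pool lay among the WT pools. Mrpl1, the protein of the mobile L1 stalk, read 0.40, -0.12, -0.12 and 0.12 in WT against -0.77, -0.21, -0.24 and -0.22 in IE-Cpr-null in probe set 1423351_at. That gave -0.43 (SE 0.17, adjusted p = 0.614), the lowest of all 122. The other Mrpl1 probe sets differed by 0.10 (1450948_a_at, SE 0.16) and 0.029 (1460508_at, SE 0.039), so the probe sets of this gene did not point one way.

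Among large subunit probe sets with a higher mean, none had groups apart. Mrpl15 had the smallest p of them in probe set 1430798_x_at, with WT values of -0.031, -0.0095, 0.0095 and 0.022 and IE-Cpr-null values of -0.052, 0.11, 0.55 and 0.26. The difference of 0.22 (SE 0.12, adjusted p = 0.78) leaned on the third IE-Cpr-null pool and was 0.11 without it. The 6 other Mrpl15 probe sets ran from -0.085 to 0.061. The next by p, given here by size, were Mrpl54 at 0.085 (SE 0.090), Mrpl33 at 0.064 (SE 0.049), Mrpl51 at 0.055 (SE 0.043), Mrpl21 at 0.050 (SE 0.044) and Mrpl38 at 0.039 (SE 0.038), each with overlapping groups. Mrpl27 stood closest to no difference, with a mean of -0.046 in both genotypes (SE 0.10).

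**Figure D2:**
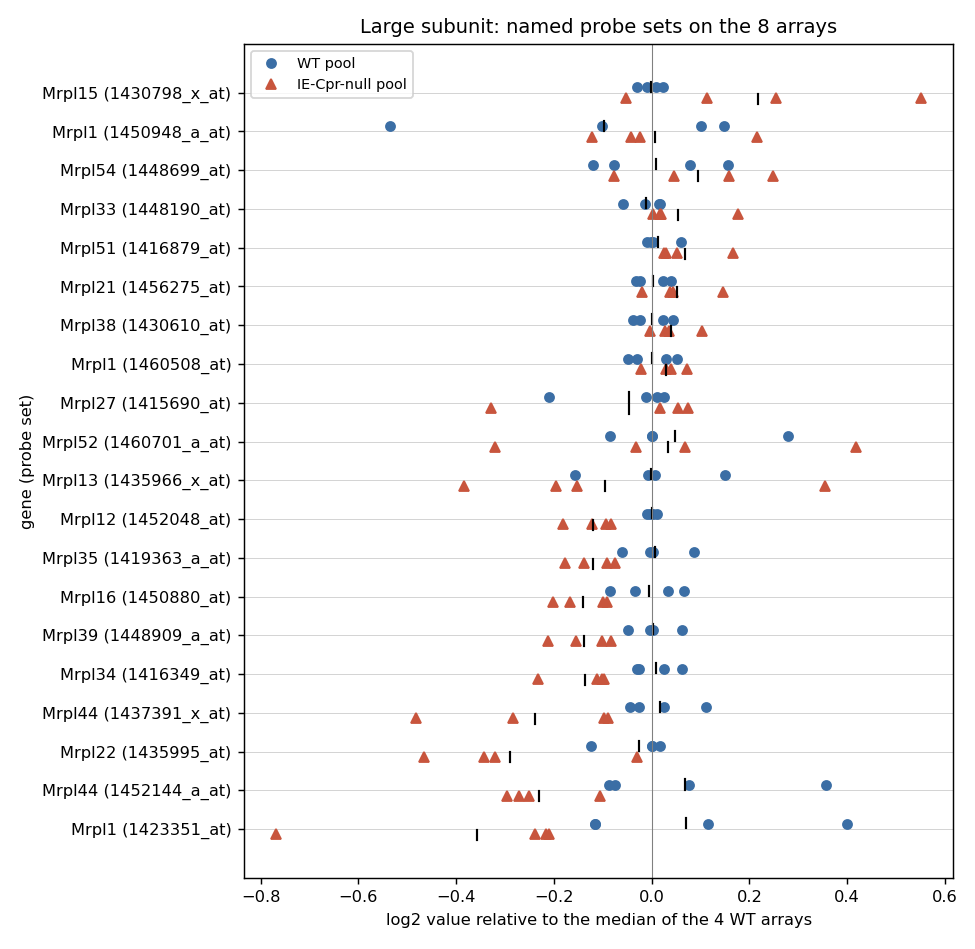
Named probe sets of the large subunit, ordered by difference. The horizontal axis is the log2 value relative to the WT median of 4 arrays, circles are WT pools, triangles IE-Cpr-null pools, and black ticks group means. In the lower rows, such as Mrpl12, Mrpl34, Mrpl35 and Mrpl39, triangles lie to the left of all circles, and in the upper rows the marks mix.

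Probe sets for proteins with bacterial relatives and for those added in mitochondria were both more often lower than higher. Of the 52 large subunit probe sets (29 genes) with bacterial relatives, 33 were lower and 19 higher, with a median of -0.035. Of the 31 (18 genes) added in mitochondria, 24 were lower and 7 higher, with a median of -0.068. The difference between these medians was not tested.

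The small subunit also leaned lower, with 29 probe sets lower and 10 higher and a median difference of -0.089. Its median was 0.036, -0.0065, -0.020 and -0.014 on the WT arrays and -0.0088, -0.115, -0.039 and -0.074 on the IE-Cpr-null arrays. IE-Cpr-null replicate 2, rich in hepatocyte transcripts, was again lowest, and replicate 1 lay within the WT range. Without IE-Cpr-null replicate 2 the median difference was -0.045. No probe set was called by limma (0 of 39), and at an unadjusted p under 0.05 there were 5 lower (12.8%, background 4.47%) and 2 higher (5.13%, background 2.92%). The groups did not overlap in 4, of which 2 were lower (5.13%, background 2.47%) and 2 higher (5.13%, background 1.64%).

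The 2 that were higher both measured Mrps15, whose bacterial relative S15 binds ribosomal RNA early in assembly of the subunit. In probe set 1456109_a_at the WT arrays read 0.018, -0.00092, 0.00092 and -0.014 and the IE-Cpr-null arrays 0.161, 0.255, 0.229 and 0.144. In probe set 1449294_at they read 0.14, 0.032, -0.042 and -0.032 against 0.30, 0.38, 0.18 and 0.23. Each IE-Cpr-null pool was above each WT pool in both. The differences were 0.20 (SE 0.037, 95% interval 0.11 to 0.28, limma adjusted p = 0.251) and 0.25 (SE 0.061, 95% interval 0.10 to 0.39, adjusted p = 0.343). As a gene Mrps15 was 16.5% higher (difference 0.22, SE 0.043, limma adjusted p = 0.187 over 10401 genes). It was the member with the smallest p of all 122 probe sets, in the direction opposite to most of them.

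Lower members of the small subunit were led by Mrps34, a protein added in mitochondria. It read -0.015, 0.015, -0.059 and 0.11 in WT against -0.210, -0.125, -0.145 and -0.0744 in IE-Cpr-null, without overlap, a difference of -0.15 (SE 0.049, adjusted p = 0.507). Mrps23, also added in mitochondria, read -0.0087, -0.018, 0.10 and 0.0087 in WT against -0.39, -0.076, -0.097 and -0.105 in IE-Cpr-null in probe set 1421875_a_at. Its groups did not overlap either, and the difference was -0.19 (SE 0.076, adjusted p = 0.646). The second Mrps23 probe set, 1421874_a_at, differed by -0.038 (SE 0.092) with overlapping groups.

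Of the bacterial relatives, Mrps24 differed by -0.16 (SE 0.056, adjusted p = 0.56) in probe set 1450865_s_at and Mrps17 by -0.16 (SE 0.058, adjusted p = 0.588). Mrps22, added in mitochondria and known from inherited mitochondrial disease, differed by -0.21 (SE 0.083, adjusted p = 0.647). Its lowest pool was IE-Cpr-null replicate 2 at -0.40, with the other 3 between -0.15 and -0.13 and WT between -0.14 and 0.15. In these 3 genes at least 1 pool of each genotype lay within the range of the other. Mrps25 had the lowest difference of the subunit, -0.36 in probe set 1418716_at, but its SE was 0.18 and WT values spread from -0.33 to 0.35.

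The 4 probe sets with the next smallest p among those with a higher mean were Mrps36 (0.093, SE 0.064), Mrps33 (0.042, SE 0.038), and single probe sets of Mrps14 (0.029, SE 0.044) and Mrps25 (0.022, SE 0.033). Mrps36 carries a ribosomal name but is now known as a subunit of the 2-oxoglutarate dehydrogenase complex. The widest spread within a group was that of Mrps5 in probe set 1453954_a_at, where WT replicate 1 read 0.66 and the other WT pools -0.16 to 0.096, with IE-Cpr-null at -0.15 to -0.082. Mrps9 in probe set 1439210_at read -0.63 on WT replicate 1 and -0.11 to 0.14 on the other WT pools.

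**Figure D3:**
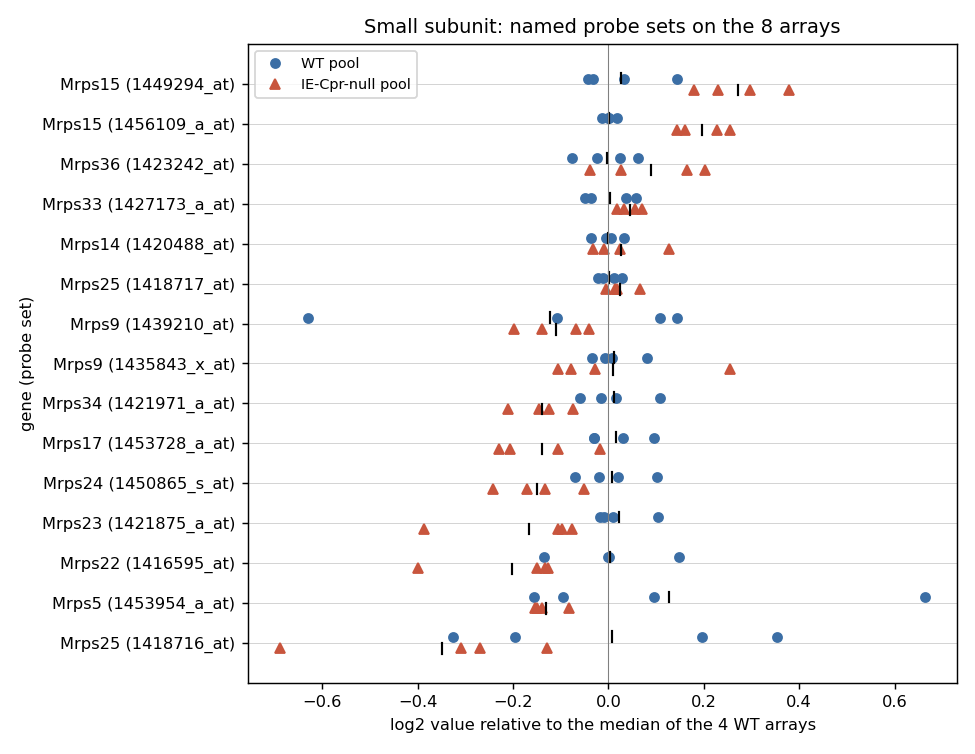
Named probe sets of the small subunit, ordered by difference, drawn as for the large subunit (log2 value relative to the WT median of 4 arrays, circles WT pools, triangles IE-Cpr-null pools, black ticks means). Both Mrps15 rows have all triangles to the right of all circles, and Mrps34 and Mrps23 have them to the left.

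Mrps30 and Mrps18a sit in the large subunit in the solved mammalian ribosome, whatever their symbols say. Mrps30 differed by -0.040 (SE 0.052) and Mrps18a by -0.071 (SE 0.053). With both moved, the medians were -0.052 for the large and -0.10 for the small subunit. With both left where their symbols put them, 26 small subunit probe sets (17 genes) had bacterial relatives, with 19 lower and a median of -0.077. The other 13 (10 genes), Mrps36 among them, were classed as added in mitochondria, with 10 lower and a median of -0.11.

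Taking each gene as the mean of its probe sets, 37 of 47 large subunit genes and 22 of 27 small subunit genes were lower. After Mrpl44, the lowest genes were Mrpl22, Mrpl42 (-0.23, SE 0.093) and Mrps2 (-0.21, SE 0.094). Several probe sets measured 29 of the 74 genes. All of them were lower in 11 genes, all higher in 3, and mixed in 15. Among the genes measured more than once, Mrpl44, Mrpl13, Mrpl49, Mrps2, Mrps5, Mrps23 and Mrps24 were lower throughout, and Mrps15, Mrpl33 and Mrpl38 higher throughout. The endings _a, _s and _x, which mark probes that can match more than 1 transcript, were on 49 of the 122 probe sets, 1456109_a_at of Mrps15 among them. Without those the medians were -0.062 (large) and -0.086 (small). A set of 7 member probe sets (5.74%, against 13.3% of all) stayed within 0.05 of the array's median on all 8 arrays. These were single probe sets of Mrpl1, Mrpl3, Mrpl15, Mrpl19, Mrpl33, Mrps11 and Mrps25, and without them the medians were -0.063 (large) and -0.10 (small).

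**Figure D4:**
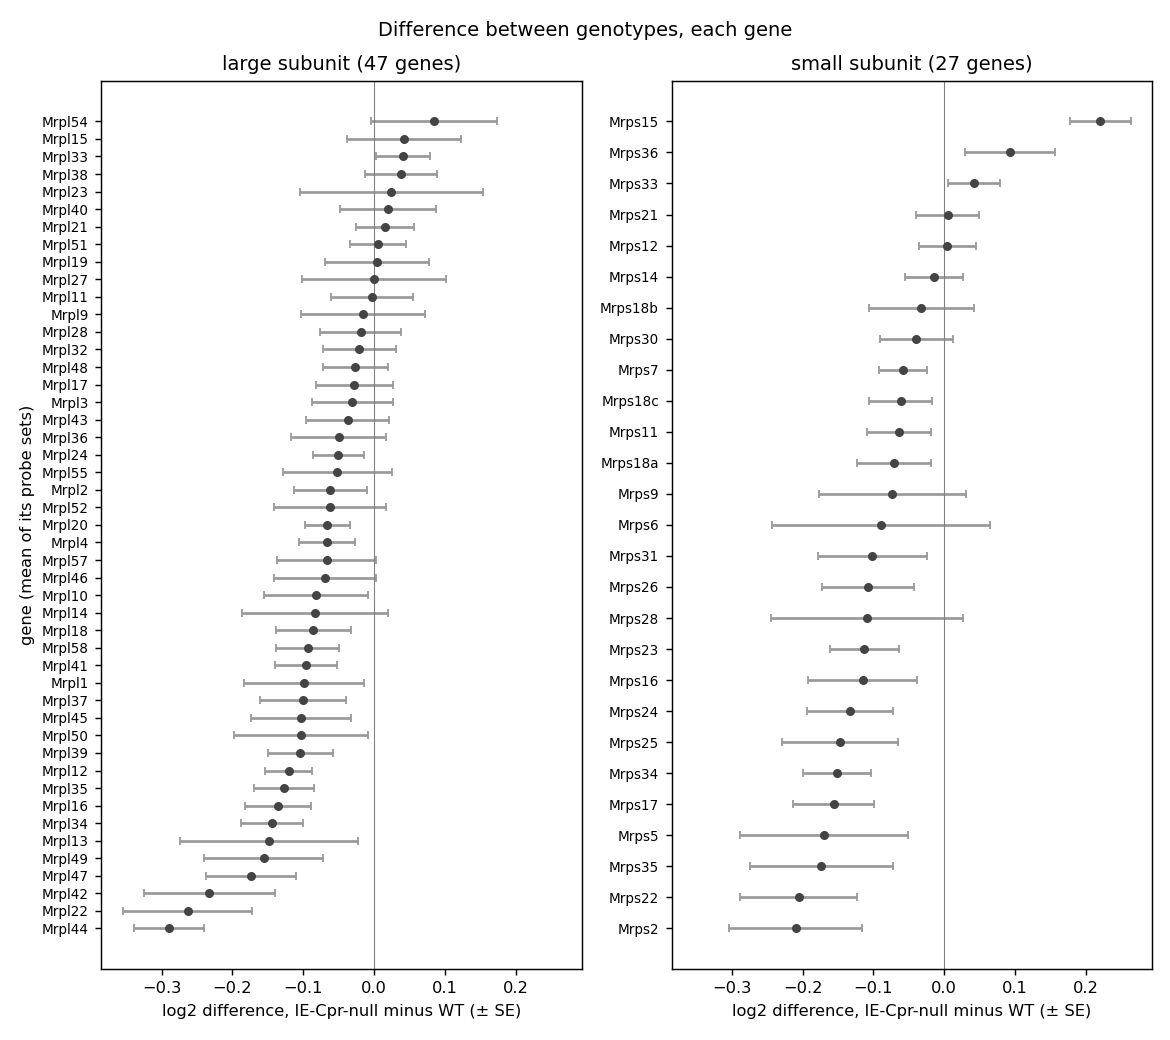
Log2 difference, IE-Cpr-null minus WT, with its limma SE (bars) for each gene as the mean of its probe sets (horizontal axis), large subunit on the left and small subunit on the right. Most points lie left of 0, Mrpl44 lowest at -0.29, and Mrps15 stands alone on the right at 0.22.

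A group of members varied with the array more than with the genotype. Mrpl13, in probe sets 1435966_x_at and 1460354_a_at, read 0.35 and 0.41 on IE-Cpr-null replicate 1 and -0.385 to -0.154 in the remaining IE-Cpr-null pools. Mrps9 in probe set 1448921_a_at read 0.33 on that array, 0.27 on WT replicate 3 and -0.393 to -0.0871 in the remaining IE-Cpr-null pools. Mrps28 and Mrps6 were likewise highest on IE-Cpr-null replicate 1, at 0.16 and 0.40, and at most -0.0387 and -0.0884 in the others of that genotype. Mrpl52 in probe set 1460701_a_at read 0.419 there and -0.321 to 0.0671 in the other IE-Cpr-null pools. Of these, the named Mrpl52 and first Mrpl13 probe sets came by rule, and the rest were picked with their values in view. The 7 measured markers of dividing cells had means of 0.85 on IE-Cpr-null replicate 1 and -0.59 to -0.024 in the remaining pools of that genotype. On WT replicate 3 those markers had a mean of 0.55, where Mrps9 was high but Mrps6 read -0.054 and Mrps28 0.052, and Mrps6 read 0.35 on WT replicate 1, where the markers had a mean of -0.14. Their part in these values was not tested.

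Markers of several other cell types differed one way between the genotype means. Acinar markers were lower in all 8 genes measured, with means of -5.55 to -2.39 in IE-Cpr-null against -5.49 to 1.69 in WT. Enteroendocrine markers were lower in all 6, with means of -0.32 to -0.084 against -0.23 to 0.090, and goblet cell markers in 4 of 5, with means of -0.18 to 0.030 against -0.068 to 0.11. Macrophage and dendritic cell markers were lower in all 5 measured, with means of -0.70 to -0.10 in IE-Cpr-null and -0.24 to 0.48 in WT. T cell markers were higher in all 6, with means of -0.10 to 0.25 in IE-Cpr-null and -0.051 to 0.079 in WT. The part of these cells in the member values was not tested. Without both hepatocyte-rich arrays the subunit medians were -0.026 (large) and -0.050 (small), and without both muscle-rich arrays -0.057 and -0.11.

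Proteins of the same ribosome that carry other symbols were few. Of 7 symbols looked for, which included Ict1 and Mrp63, older names of the members Mrpl58 and Mrpl57, 4 were measured by 5 probe sets. Of these probe sets 4 were lower and 1 higher, and limma called none (0 also at an unadjusted p under 0.05). Ptcd3 differed by -0.26 (SE 0.12), Dap3, which binds GTP in the small subunit, by -0.10 (SE 0.069), and Chchd1 by -0.088 (SE 0.084). Gadd45gip1 of the large subunit gave -0.18 (SE 0.089) and 0.017 in its 2 probe sets. These values lay in the range of the members.

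Genes that serve the mitochondrial ribosome gave no call in limma in any list below. Against a background of 4.47% lower at an unadjusted p under 0.05, there were 2 of 12 probe sets (16.7%) for mitochondrial DNA, 2 of 48 (4.17%) for import, 1 of 10 (10.0%) for translation factors, 1 of 18 (5.56%) for the synthetases and 0 of 31 for assembly. None of these lists had a higher probe set at that p. Ribosome assembly factors were lower in 24 of 31 probe sets (median -0.088), with Noa1, a GTPase of assembly, at -0.64 (SE 0.30). Translation factors were lower in 9 of 10 (median -0.041), with the smallest p for the elongation factor Gfm1 at -0.195 (SE 0.080) in 1 of its probe sets and the lowest value for the insertase Oxa1l at -0.25 (SE 0.29) in 1 of its own. The list of mitochondrial aminoacyl-tRNA synthetases was lower in 9 of 18 (median -0.033), with the arginyl enzyme Rars2 at -0.40 (SE 0.13, adjusted p = 0.485). This list, counted above as the synthetases, also held Qrsl1, Gatb and Gatc, which are amidotransferase subunits and not synthetases. It held Gars and Kars too, which also serve the cytosol. Genes for the transcription and upkeep of mitochondrial DNA were lower in 10 of 12 (median -0.052), with the protease Lonp1 at -0.36 (SE 0.11, adjusted p = 0.46) and groups apart. Import and membrane genes were lower in 36 of 48 (median -0.041), with the import receptor Tomm70a lower in all 4 probe sets (-0.59 to -0.055).

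Among regulators of mitochondrial biogenesis, Ppargc1a separated the genotypes most. It encodes PGC-1α, a coactivator that works with NRF1 and the GABP factors. All 5 of its probe sets had every IE-Cpr-null pool below every WT pool, with differences of -0.56 to -0.32. Averaged over them, WT pools read 0.080, -0.0090, -0.013 and 0.0044 and IE-Cpr-null pools -0.39, -0.52, -0.29 and -0.34. The gene's difference was -0.40 (SE 0.056, limma adjusted p = 0.0793 over 10401 genes), which missed the threshold. Nrf1 (0.091, SE 0.050), Gabpa (0.019, SE 0.085), Gabpb1 (0.081, SE 0.098), Esrra (-0.064, SE 0.060) and Ppargc1b (-0.12, SE 0.16) had adjusted p values of 0.709 to 0.928. Over this list 13 of 20 probe sets were lower, and the groups did not overlap in 5, all lower (25.0%, background 2.47%). Those 5 all measured Ppargc1a and so stand for 1 gene. At an unadjusted p under 0.05 in limma, 5 were lower (25.0%, background 4.47%) and 0 higher (background 2.92%).

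The respiratory chain and ATP synthase, whose mitochondrially encoded subunits this ribosome makes, leaned the same way. Of 149 probe sets chosen by symbol for their nuclear subunits 129 were lower, with a median of -0.053. That choice can also take in assembly factors with like symbols (Ndufaf). Limma called 0, with 23 lower at an unadjusted p under 0.05 (15.4%, background 4.47%). In 21 every IE-Cpr-null array lay below every WT array (14.1%, background 2.47%). Transcripts of cytosolic ribosomal proteins did not lean so, with 55 of 97 probe sets lower and a median of -0.0080. Their medians swung between arrays, at 0.255 on IE-Cpr-null replicate 1, 0.206 on WT replicate 3 and -0.26 on IE-Cpr-null replicate 2, where the large mitochondrial subunit read -0.013, -0.015 and -0.067. Differences between these groups of genes were not tested.

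**Figure D5:**
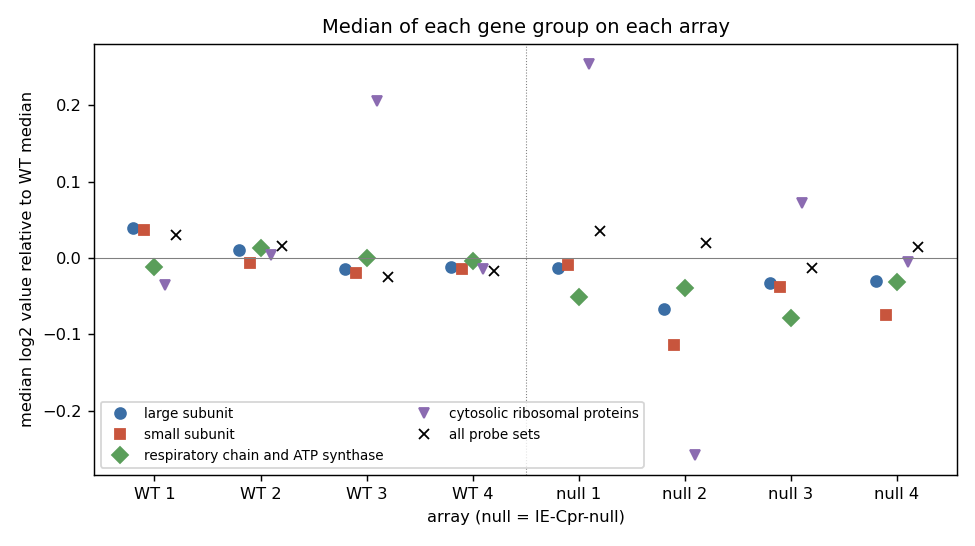
Median log2 value relative to the WT median (vertical axis) on each of the 8 arrays (horizontal axis) for both mitochondrial subunits, the respiratory chain and ATP synthase, cytosolic ribosomal proteins and all probe sets. Both subunit medians are at or below -0.0088 on all 4 IE-Cpr-null arrays, lowest on replicate 2, while the cytosolic ribosome spans -0.259 to 0.255.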

How the data were processed

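Expression was measured on 8 single-colour arrays, 4 per genotype, each with RNA pooled from 2 mice. The sample titles gave genotype and replicate number. The deposited values were log2 values per probe set, made by the authors with GCRMA per the submitters' processing notes (version and settings not given in the sources used here). In all 18443 probe sets the median of the 4 WT arrays was 0, so the deposited log2 values had been centred on WT. Levels and signal over background are therefore unknown, and dim probe sets could not be removed. The labels give no batch.

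Each probe set was tested with limma 3.58.1 in R 4.3.3 (lmFit, eBayes, two-sided, 2 group means, no block), with Benjamini-Hochberg adjustment over all probe sets and a threshold of 0.05. Intervals are 95% from the same fit. Gene values are means of a gene's probe sets, fitted over 10401 genes. The number of arrays limits the precision. Pools are taken as separate samples. The script was tested on simulated data.

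Probe sets were named from the platform annotation, and 0 member symbols needed an update in RefSeq's GRCm38.p6 table. The members, gene lists and alternatives were chosen with earlier results of these data known. Named were any member past the threshold and, in each subunit, the 6 higher and 6 lower probe sets of smallest p, up to 6 more whose groups did not overlap, the 2 of widest range in a group, the 1 closest to no difference, and genes whose probe sets differed in sign with 1 at an unadjusted p under 0.05. For other lists the rule was the 3 of smallest p, but most of those lists name fewer genes. Genes outside this rule were picked with their values in view. Alternatives were array weights, median centring, quantile normalization, the replicate number as a block, a robust prior, fewer probe sets, 1 value per gene, another subunit assignment, and arrays left out.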

Additional observations from a re-analysis of the deposited data

Results flagged for a closer look

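In the 74 groups of 4 arrays checked (each genotype of each named probe set, and both subunit medians), 9 held 1 array far from the other 3 by Dixon's criterion, which sets its gap to the nearest array against the group's range. Chance flags about 1 in 20 groups. In IE-Cpr-null replicate 1 these were Mrpl33 (1448190_at) at 0.177, Mrpl1 (1423351_at) at -0.768, Mrpl27 (1415690_at) at -0.328 and Mrps23 (1421875_a_at) at -0.387, the array that was rich in smooth muscle transcripts. In IE-Cpr-null replicate 2 it was Mrps22 (1416595_at) at -0.400, and in replicate 3 Mrpl34 (1416349_at) at -0.233. Among WT arrays, replicate 1 stood apart for Mrpl51 (1416879_at) at 0.0609, replicate 2 for Mrpl22 (1435995_at) at -0.124 and replicate 3 for Mrpl27 (1415690_at) at -0.210. No subunit median was among them.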

How the results depend on the processing

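Both subunit medians stayed below 0 in every setting run, from -0.078 to -0.026 (large) and -0.136 to -0.045 (small). Median centring gave -0.065 and -0.103 and quantile normalization -0.043 and -0.057. They moved by more than the spread between arrays with the less variable probe sets left out (-0.078 and -0.136), without the hepatocyte-rich arrays (-0.026 and -0.050) and, in the small subunit, without IE-Cpr-null replicate 2 alone (-0.0454). Leaving out 1 array gave -0.0565 to -0.0300 and -0.0959 to -0.0454.

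No member passed the threshold in any setting except array weights, which put most weight on WT and IE-Cpr-null replicates 4. There 6 of 122 members passed in limma, against 741 of all 18443 probe sets, shares that lie close together. They were Mrps15 (2 probe sets) as higher, and Mrpl39, Mrpl22, Mrps17 and Mrpl44 (1437391_x_at) as lower. At an unadjusted p under 0.05 in limma, members numbered 19 of 122 as reported and 6 of 122 with quantile normalization. That count thus depended on the normalization, and the share over all probe sets with quantile normalization is not given here.

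Probe sets whose groups did not overlap numbered 8 (large) and 4 (small) as reported. They were 5 and 2 with 1 value per gene, 3 and 2 with the less variable probe sets left out, 2 and 2 with quantile normalization, and 4 and 1 without probe sets of shared probes. They were 15 and 8 without the hepatocyte-rich arrays and 17 and 9 without the muscle-rich arrays, where fewer arrays make separation more frequent, and median centring gave 7 in the small subunit. Leaving out 1 array gave 8 to 15 and 4 to 8, the highest without IE-Cpr-null replicate 1 (15 and 7), WT replicate 3 (14 and 7) and, in the small subunit, IE-Cpr-null replicate 3 (8). Some of these settings use fewer members or arrays, and the share over all probe sets is not given for them. The counts therefore show only how the number varied and are not set against a background.

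With the replicate number as a block, 0 of 122 members passed in limma and 17 had an unadjusted p under 0.05. The share over all probe sets in that setting is not given here. Deviations of same-numbered arrays correlated at -0.058, -0.041, 0.256 and 0.131, and only numbers 3 and 4 correlated best with their own partner, so the numbers are not taken as pairs.

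Of 628 comparisons of 35 named probe sets, 592 kept direction and call, and 30 turned sign, all in probe sets whose reported difference was at most 0.104 in size. With 1 value per gene these were both other Mrpl1 probe sets (-0.0989), Mrps25 (-0.148), Mrps14 (-0.0147) and Mrps9 (1439210_at, -0.0732). That Mrps9 probe set read -0.0894 with array weights, -0.0020 with median centring and -0.0240 with quantile normalization, and 1435843_x_at read 0.00445. Mrpl27 read -0.0132 with median centring. Without the hepatocyte-rich arrays Mrpl52 (1460701_a_at) read 0.145, Mrpl27 -0.0812 and Mrps9 (1435843_x_at) 0.0767. Leaving out 1 array ranged over -0.0424 to 0.186 (Mrpl1, 1450948_a_at), -0.243 to 0.0028 (Mrpl13, 1435966_x_at), -0.0548 to 0.0940 (Mrpl27), -0.144 to 0.103 (Mrpl52), -0.0050 to 0.0485 (Mrps14), and -0.0830 to 0.0376 and -0.158 to 0.0995 (Mrps9). The causes were not tested.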
